A study of Mus musculus with 16 samples.

Results

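The 9 genes described here encode a myeloid growth factor, the receptors of several such factors, and transcription factors of the myeloid lineage: Csf1, Csf1r, Csf2ra, Csf2rb, Csf2rb2, Flt3, Spi1, Maf and Zeb2. They were chosen by gene symbol from the 20101 gene entries of the deposited expression table, and each symbol named 1 entry. All 9 passed the filter on low values, which asked for at least 1 FPKM (fragments per kilobase of transcript, scaled to the mapped fragments of the library) in at least 4 of the 16 libraries. Flt3 passed it narrowly, with 5 libraries at 1 FPKM or more, of which 3 were HFD KO, 1 was HFD WT, 1 was chow KO and 0 were chow WT. The other 8 genes reached 1 FPKM in all 16 libraries.

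The tissue was epididymal white adipose tissue, a fat pad that lies against the epididymis, from mice aged 21 weeks, and the series asks how apolipoprotein A-IV bears on inflammation of this fat. The HFD KO and HFD WT groups were put on a high-fat diet with 60% fat at 5 weeks of age, after standard chow with 5% fat. The chow KO and chow WT groups stayed on that chow throughout, so all 16 mice shared the same start. Each group held 4 mice. Sample titles call the genotypes KO and WT, whereas the genotype label gives ApoA4 knockdown for the same mice. The labels used here name no promoter, targeting vector, Cre driver, strain or sex, and KO and WT stand below for the labels only.

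Myeloid growth factors act through receptors on precursors and mature cells. Csf1 is the main survival and growth factor of macrophages and signals through the receptor tyrosine kinase Csf1r, which also binds Il34. Receptors of the GM-CSF family pair a ligand-specific alpha chain, such as Csf2ra, with a shared beta chain, Csf2rb. In the mouse, a duplicated gene, Csf2rb2, gives a further beta chain that serves interleukin 3 alone. Flt3 is the receptor kinase of early progenitors and of the dendritic cell lineage. Spi1, an ETS-family factor also called PU.1, drives macrophage and other myeloid genes, Csf1r among them, while Maf and Zeb2 shape the tissue programme of resident macrophages and are also made outside the myeloid lineage. In obese fat, macrophages gather around dying adipocytes.

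Because Spi1 and several of its textbook targets are set side by side below, the promoter windows of 3 genes are shown, each 250 bases before to 50 bases after a start site in the RefSeq table for GRCm38.p6. Capitals mark GAGGAA or its other strand, TTCCTC, the core of the PU.1 motif. The windows are on the minus strand of chromosome 19 (chr19:61228369-61228668, Csf2ra), chromosome 15 (chr15:78305672-78305971, Csf2rb2) and chromosome 3 (chr3:107760420-107760719, Csf1).
Csf2ra: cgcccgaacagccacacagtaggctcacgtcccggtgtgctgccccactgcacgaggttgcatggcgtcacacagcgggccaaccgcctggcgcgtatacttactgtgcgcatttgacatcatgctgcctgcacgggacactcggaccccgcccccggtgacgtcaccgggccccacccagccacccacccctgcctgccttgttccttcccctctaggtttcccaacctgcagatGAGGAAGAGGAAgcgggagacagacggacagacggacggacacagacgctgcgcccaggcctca
Csf2rb2: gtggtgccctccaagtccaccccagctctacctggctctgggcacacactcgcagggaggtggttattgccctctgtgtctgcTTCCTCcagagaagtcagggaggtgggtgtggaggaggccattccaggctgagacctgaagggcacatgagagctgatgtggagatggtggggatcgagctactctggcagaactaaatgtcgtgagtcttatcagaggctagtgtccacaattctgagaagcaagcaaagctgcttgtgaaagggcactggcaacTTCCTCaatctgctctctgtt
Csf1: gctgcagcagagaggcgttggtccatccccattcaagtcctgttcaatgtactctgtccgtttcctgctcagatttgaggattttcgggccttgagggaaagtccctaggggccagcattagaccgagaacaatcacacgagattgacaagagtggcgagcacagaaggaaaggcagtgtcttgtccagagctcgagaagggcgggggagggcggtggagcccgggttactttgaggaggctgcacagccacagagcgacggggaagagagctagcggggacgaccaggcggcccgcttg

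The Csf2ra window held GAGGAA at 2 places, starting 14 and 8 bases before the start site and adjoining each other. The Csf2rb2 window held TTCCTC at 2 places, starting 167 bases before the start site and at base 30 counted from it, and the Csf1 window held neither form. Of the other members, Flt3 had 1 window without the motif and Zeb2 had 4 windows with 1 match each. Of those 4 windows, 2 overlap and hold the same match, 16 and 42 bases before their start sites. The motif was present in 28.3% of all 32851 promoter windows of the same length in the table, so a match is common and describes letters only. Windows were matched for 5 of the 9 members, and Csf1r, Csf2rb, Spi1 and Maf are named only.

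Csf2rb and Csf2rb2 are near-copies that lie close together on chromosome 15 in opposite orientation. In the GENCODE transcripts their longest reading frames ran to 2691 bases for Csf2rb and 2637 bases for Csf2rb2, and 95.2% of 2631 aligned bases were identical. The 120-base stretches in which they were least alike are given with the 22 differing bases in capitals, followed by a stretch that is the same in both genes.
Csf2rb, coding bases 309 to 428: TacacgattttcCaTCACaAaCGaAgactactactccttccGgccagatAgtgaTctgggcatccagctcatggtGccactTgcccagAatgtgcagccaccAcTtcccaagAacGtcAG
Csf2rb2, coding bases 312 to 431: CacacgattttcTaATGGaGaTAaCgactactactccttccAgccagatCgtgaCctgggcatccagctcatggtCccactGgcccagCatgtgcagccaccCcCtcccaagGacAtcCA
Csf2rb and Csf2rb2, coding bases 2083 to 2202: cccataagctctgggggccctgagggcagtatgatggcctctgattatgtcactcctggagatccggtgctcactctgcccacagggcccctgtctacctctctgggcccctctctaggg

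Read lengths of 100 and 50 bases were chosen here. A 100-base read taken from the coding sequence fits the other gene without a mismatch at 11% of positions in Csf2rb and 11.3% of positions in Csf2rb2. A 50-base read does so at 26.3% of positions in Csf2rb and 26.5% in Csf2rb2. The values of these 2 genes may therefore hold some of each other's reads, since the sources used here do not say how shared reads were counted.

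Sequencing depth is unknown, because the deposited values are scaled and hold no reads. Between 11554 and 13184 genes reached 1 FPKM in a library. Apoa4 RNA went against the KO labels, at 4.93 to 9.63 FPKM in HFD KO libraries against 0 to 0.29 FPKM in HFD WT libraries, and at 1.96 to 5.96 FPKM in chow KO libraries against 0.09 to 0.29 FPKM in chow WT libraries. Every genotype difference below is therefore one between the libraries labelled KO and those labelled WT. The summed share of 12 epididymal genes in a library's FPKM was 1.38% for HFD KO replicate 4, 0.0810% for HFD KO replicate 2 and 2.87% for chow KO replicate 2, while no other library exceeded 0.0101%. For the 9 genes, printed differences whose call or sign changes without these 3 libraries are given both ways. Adipocyte markers (Adipoq, Plin1, Cfd and others) were present in all libraries, with a summed level of 3443 to 15001 FPKM in HFD KO, 5590 to 18220 FPKM in HFD WT, 16698 to 38948 FPKM in chow KO and 31578 to 33894 FPKM in chow WT. The 4 libraries of a group are separate mice by the labels, which do not say whether they were processed together, and p-values measure the spread between these libraries.

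Across the 9 genes, high-fat feeding went with large rises of the receptor genes Csf2ra, Csf2rb, Csf2rb2 and Csf1r and of the transcription factor gene Spi1, in both genotypes. The growth factor gene Csf1 and the transcription factor genes Maf and Zeb2 did not pass the test in either genotype with all 16 libraries. Without the 3 libraries with epididymal genes, Csf1 and Maf passed it in KO-labelled mice and Zeb2 in WT-labelled mice. Flt3 passed it in KO-labelled mice, and it was tested only through its HFD KO libraries. No gene passed the test between the KO-labelled and WT-labelled mice on either diet. In whole tissue, more cells of a type and more RNA per cell cannot be told apart.

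**Figure D1:**
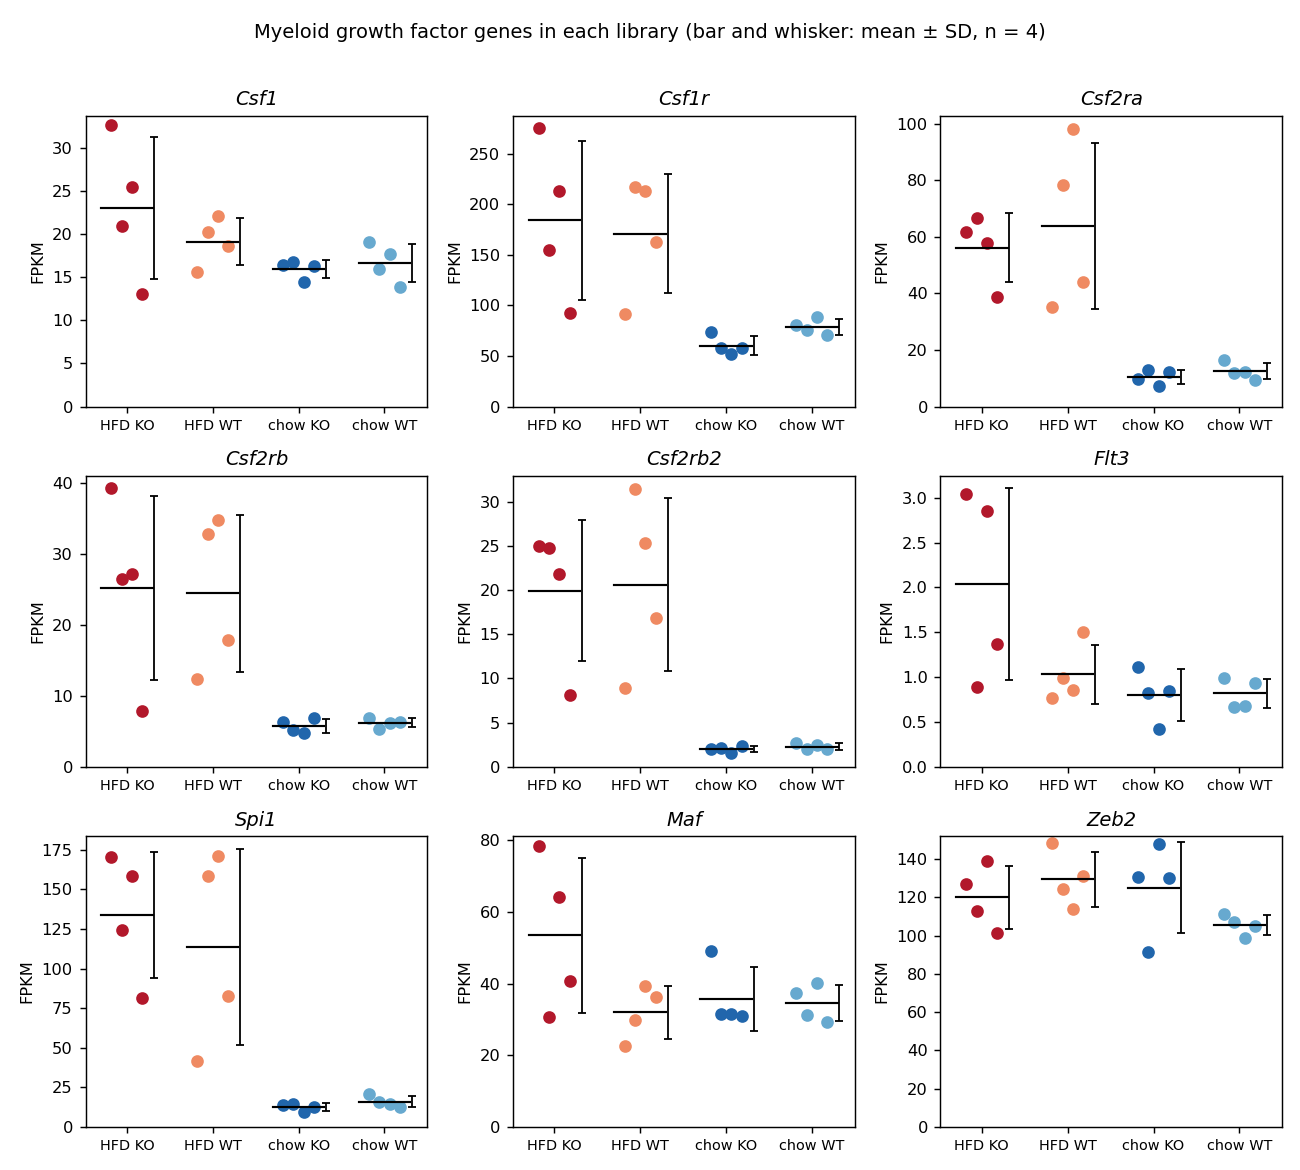
FPKM of the 9 genes in each of the 16 libraries, with a panel per gene and groups ordered HFD KO, HFD WT, chow KO and chow WT; points are libraries, and the bar and whisker are the mean ± SD of 4 libraries. For Csf1r, Csf2ra, Csf2rb, Csf2rb2 and Spi1 the HFD points lie above the chow points of the same genotype, while Csf1, Flt3, Maf and Zeb2 overlap between diets in KO-labelled mice.

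The growth factor gene Csf1 (chromosome 3, 107741048 to 107760469, minus strand, GRCm38.p6) stood at 32.7, 20.9, 25.5 and 13.02 FPKM in HFD KO libraries, given here and below in replicate order 1 to 4, and at 16.4, 16.8, 14.4 and 16.3 FPKM in chow KO libraries. In HFD WT libraries it stood at 15.6, 20.2, 22.1 and 18.7 FPKM, against 19.1, 15.9, 17.8 and 13.9 FPKM in chow WT libraries. The groups overlapped in both genotypes: 3 HFD KO libraries were above every chow KO library, and HFD KO replicate 4 was below all of them. On the log2(FPKM + 1) scale the difference of HFD minus chow was 0.43 in KO-labelled mice (SE 0.21, limma adjusted p = 0.107) and 0.19 in WT-labelled mice (SE 0.21, limma adjusted p = 0.483). Csf1 in KO-labelled mice passed the test without the 3 libraries with epididymal genes, with a difference of 0.84 (limma adjusted p = 0.00161), and without HFD KO replicate 4 alone, with a difference of 0.67 (limma adjusted p = 0.00345).

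The gene of the Csf1 receptor passed the test in both genotypes with all 16 libraries, which that of its ligand did not. Csf1r (chromosome 18, 61105572 to 61131139, plus strand) was the most abundant of the 9 genes on HFD, at 276, 155, 212.5 and 92.9 FPKM in HFD KO libraries against 73.9, 57.9, 52.0 and 57.6 FPKM in chow KO libraries. It held 91.1, 217, 213 and 163 FPKM in HFD WT libraries against 80.5, 75.5, 88.4 and 70.4 FPKM in chow WT libraries. Every HFD library was above every chow library of its genotype, though HFD WT replicate 1 exceeded the highest chow WT library by only a small margin. Csf1r rose by 1.50 in KO-labelled mice (SE 0.30, limma adjusted p = 0.00185) and by 1.04 in WT-labelled mice (SE 0.30, limma adjusted p = 0.0133). Of the exonic bases of Csf1r, 15.1% lie opposite exons of Hmgxb3, and with unknown library strand, reads of that gene can be part of the value.

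Csf2ra (chromosome 19, 61217191 to 61228461, minus strand), the alpha chain that gives the GM-CSF receptor its ligand, stood at 61.6, 66.6, 57.8 and 38.6 FPKM in HFD KO libraries against 9.58, 12.9, 7.18 and 12.2 FPKM in chow KO libraries. The HFD WT libraries held 35.1, 78.2, 98.1 and 44.0 FPKM against 16.6, 11.7, 12.3 and 9.56 FPKM in chow WT libraries. The lowest HFD library was well above the highest chow library in both genotypes. The rise was 2.32 in KO-labelled mice (SE 0.29, limma adjusted p = 9.70e-05) and 2.17 in WT-labelled mice (SE 0.29, limma adjusted p = 9.79e-05), and the ratio of HFD to chow means was 5.37 in KO-labelled and 5.09 in WT-labelled mice. HFD KO libraries varied less than HFD WT libraries, with a coefficient of variation of 21.8% in HFD KO against 46.1% in HFD WT.

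The beta chains followed the same direction. Csf2rb (chromosome 15, 78325800 to 78351001, plus strand), the beta chain shared by the receptors of GM-CSF, interleukin 3 and interleukin 5, stood at 39.2, 26.4, 27.2 and 7.81 FPKM in HFD KO libraries against 6.29, 5.19, 4.77 and 6.93 FPKM in chow KO libraries. In HFD WT libraries it held 12.4, 32.8, 34.8 and 17.9 FPKM against 6.89, 5.30, 6.21 and 6.34 FPKM in chow WT libraries. HFD KO replicate 4 was only just above the highest chow KO library, while the other 3 HFD KO libraries were far above it. Csf2rb rose by 1.76 in KO-labelled mice (SE 0.39, limma adjusted p = 0.00296) and by 1.71 in WT-labelled mice (SE 0.39, limma adjusted p = 0.00294).

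Csf2rb2 (chromosome 15, 78282507 to 78305721, minus strand), the mouse-specific beta chain, was low on chow and had the largest ratio of HFD to chow means among the receptor genes in both genotypes. It stood at 24.96, 24.8, 21.8 and 8.14 FPKM in HFD KO libraries against 2.04, 2.17, 1.57 and 2.29 FPKM in chow KO libraries. The HFD WT libraries held 8.92, 31.4, 25.3 and 16.8 FPKM against 2.73, 2.01, 2.42 and 1.98 FPKM in chow WT libraries. No HFD library came near the chow range. Csf2rb2 rose by 2.69 in KO-labelled mice (SE 0.35, limma adjusted p = 0.000112) and by 2.59 in WT-labelled mice (SE 0.35, limma adjusted p = 9.38e-05), and its means differed by a ratio of 9.87 in KO-labelled and 9.02 in WT-labelled mice.

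Flt3 (chromosome 5, 147330741 to 147400489, minus strand) was the least abundant of the 9 genes in every group. It stood at 3.04, 0.89, 2.85 and 1.37 FPKM in HFD KO libraries against 1.11, 0.82, 0.42 and 0.85 FPKM in chow KO libraries. In HFD WT libraries it held 0.77, 0.99, 0.86 and 1.50 FPKM against 0.99, 0.67, 0.68 and 0.93 FPKM in chow WT libraries. HFD KO replicates 1 and 3 were higher than all other libraries, and the diets overlapped in both genotypes. The difference was 0.70 in KO-labelled mice (SE 0.23, limma adjusted p = 0.0244). Only 2 libraries outside HFD KO reached 1 FPKM, so Flt3 entered the test through the group in which it is high, and this call is not independent of the filter. Its difference in WT-labelled mice was 0.15 (SE 0.23, limma adjusted p = 0.618). The call in KO-labelled mice was lost without HFD KO replicate 1 (adjusted p = 0.0878), without HFD KO replicate 3 (adjusted p = 0.0836), without chow KO replicate 3 (adjusted p = 0.0760), with only the 2 groups fitted (adjusted p = 0.0925) and after quantile normalization (0.49, adjusted p = 0.166). Without the 3 libraries with epididymal genes the difference was 1.16 (limma adjusted p = 0.000564).

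Among the transcription factors, Spi1 (chromosome 2, 91082374 to 91115759, plus strand) changed most. It stood at 171, 124, 158 and 81.5 FPKM in HFD KO libraries against 13.8, 14.5, 9.31 and 12.3 FPKM in chow KO libraries. The HFD WT libraries held 41.7, 158, 171 and 82.9 FPKM against 20.8, 15.6, 14.6 and 12.2 FPKM in chow WT libraries. The diets were apart in every library of both genotypes, and the lowest HFD value was that of HFD WT replicate 1. Spi1 rose by 3.28 in KO-labelled mice (SE 0.36, limma adjusted p = 4.06e-05) and by 2.59 in WT-labelled mice (SE 0.36, limma adjusted p = 0.000130). Its mean was higher than that of 97.5% of all gene entries in HFD KO and 96.95% in HFD WT, against 73.9% in chow KO and 80.1% in chow WT.

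Maf (chromosome 8, 115703253 to 115706894, minus strand), a factor of the tissue-resident macrophage programme, stood at 78.3, 30.6, 64.1 and 40.8 FPKM in HFD KO libraries against 49.1, 31.4, 31.5 and 31.1 FPKM in chow KO libraries. It held 22.5, 29.9, 39.2 and 36.3 FPKM in HFD WT libraries against 37.3, 31.2, 40.3 and 29.4 FPKM in chow WT libraries. HFD KO replicates 1 and 3 were above all other libraries, and the diets overlapped in both genotypes. The difference was 0.50 in KO-labelled mice (SE 0.26, limma adjusted p = 0.139) and -0.13 in WT-labelled mice (SE 0.26, limma adjusted p = 0.723). Maf in KO-labelled mice passed the test without the 3 libraries with epididymal genes, with a difference of 0.94 (limma adjusted p = 0.00784), and without HFD KO replicate 2 alone, with a difference of 0.73 (limma adjusted p = 0.0290). Exons of the antisense gene Gm15655 lie opposite 5.34% of its exonic bases.

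Zeb2 (chromosome 2, 44983512 to 45117442, minus strand), a zinc finger repressor, was abundant on both diets. It stood at 127, 113, 139 and 101.1 FPKM in HFD KO libraries against 130.5, 91.4, 148 and 130.2 FPKM in chow KO libraries, and these groups overlapped fully. The HFD WT libraries held 148, 124, 114 and 131 FPKM against 111, 107, 98.9 and 105 FPKM in chow WT libraries, with every HFD WT library above every chow WT library. The difference was -0.048 in KO-labelled mice (SE 0.15, limma adjusted p = 0.824) and 0.29 in WT-labelled mice (SE 0.15, limma adjusted p = 0.132). Zeb2 in WT-labelled mice passed the test without the 3 libraries with epididymal genes, at the same difference of 0.29 (limma adjusted p = 0.0386), since those libraries are all KO-labelled and enter only the estimate of spread. Exons of Zeb2os lie opposite 3.27% of its exonic bases.

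**Figure D2:**
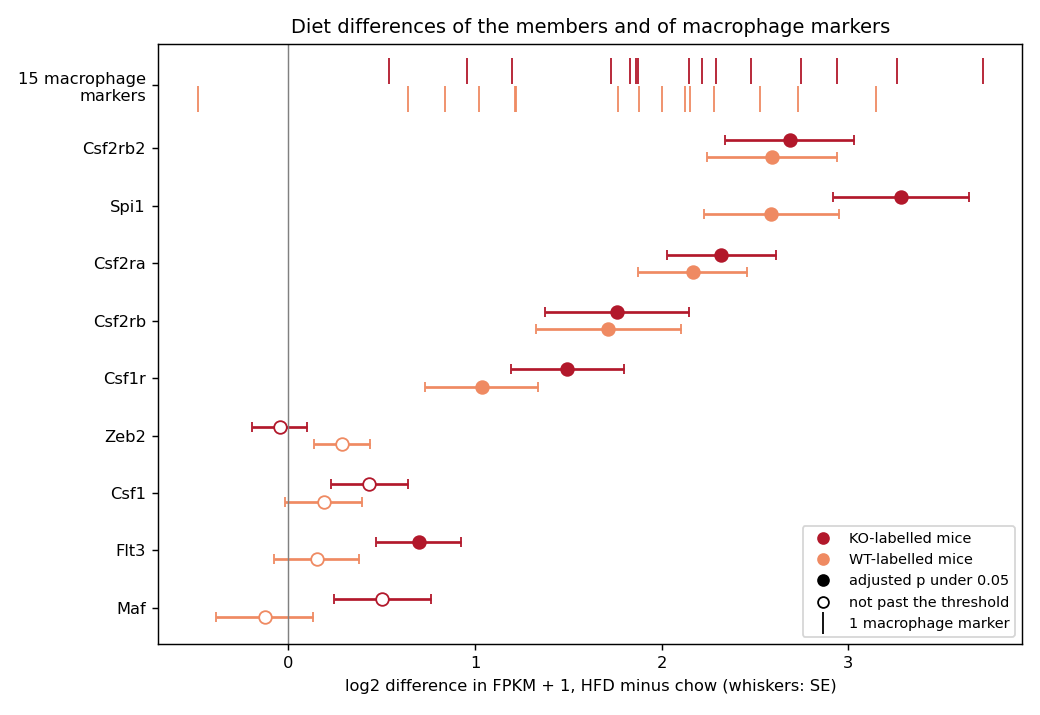
Differences of HFD minus chow in log2(FPKM + 1) for the 9 genes, with KO-labelled mice in red above WT-labelled mice in orange; whiskers are the SE of the limma fit, filled points passed an adjusted p of 0.05, and the ticks at the top are the 15 macrophage markers. Spi1 (3.28 in KO-labelled, 2.59 in WT-labelled) and Csf2rb2 (2.69 and 2.59) lie among the larger marker differences. Csf1 (0.43 and 0.19), Maf (0.50 and -0.13) and Zeb2 (-0.048 and 0.29) did not pass.

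In count, 6 of the 9 genes passed with HFD higher in KO-labelled mice and 0 with HFD lower, 1 of the 6 being Flt3, which the filter let in through HFD KO, where 23.5% of the 12667 tested genes rose and 38.9% passed in either direction. In WT-labelled mice 5 of 9 rose and 0 fell, where 24.6% of tested genes rose and 41.9% passed in either direction. Of all genes that passed, 60.5% were higher on HFD in KO-labelled mice (49.7% with median-of-ratios scaling, 43.3% after quantile normalization) and 58.8% in WT-labelled mice (46.1% after quantile normalization). Without the 3 libraries with epididymal genes the members' counts were 8 of 9 in KO-labelled mice (30% of tested genes) and 6 of 9 in WT-labelled mice (29.4% of tested genes). The HFD and chow libraries did not overlap, with HFD higher, for 5 of 9 genes in KO-labelled mice (17.5% of tested genes) and for 6 of 9 in WT-labelled mice (26.1% of tested genes). The median difference of the 9 genes was 1.50 in KO-labelled and 1.04 in WT-labelled mice, against 0.082 in KO-labelled and 0.063 in WT-labelled mice over all tested genes. By size, Spi1 was above 99.6% of tested genes in KO-labelled mice and 98.8% in WT-labelled mice, and Csf2rb2 above 99.1% in KO-labelled and 98.8% in WT-labelled mice.

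The order of the levels differed between diets. On the per-length FPKM scale, Csf1r had the highest mean in both HFD groups, at 184 ± 78.3 FPKM in HFD KO and 171 ± 58.7 FPKM in HFD WT (SD, n = 4 each), and Flt3 the lowest. In HFD KO, Csf1r, Spi1 and Zeb2 overlapped as neighbours, then Csf2ra, Maf, Csf2rb, Csf1 and Csf2rb2 overlapped in turn, while the libraries of Zeb2 and Csf2ra did not overlap. In HFD WT each neighbour overlapped the next down to Csf1, so the order Csf1r, Zeb2, Spi1, Csf2ra, Maf, Csf2rb, Csf2rb2, Csf1 is loose. On chow the order was Zeb2, Csf1r, Maf, Csf1, Spi1, Csf2ra, Csf2rb, Csf2rb2 and Flt3 in both genotypes. There, only Csf1 with Spi1 and Spi1 with Csf2ra overlapped among neighbours. Spi1 ranked 2 of 9 in HFD KO and 3 of 9 in HFD WT, against 5 of 9 in both chow groups.

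The libraries of the HFD groups spread widely, and the genes moved together in that spread. HFD WT replicate 1 was the lowest HFD WT library for 8 of the 9 genes and the highest for Zeb2, and HFD KO replicate 4 was the lowest HFD KO library for 7 of 9. These libraries also had the lowest mean log2 level of 15 macrophage markers (Adgre1, Cd68, Itgam, Lyz2, C1qa and others) in their groups, 6.16 for HFD KO replicate 4 and 5.80 for HFD WT replicate 1. The other HFD libraries had 6.72 to 7.74 in HFD KO and 6.80 to 7.57 in HFD WT, and chow libraries had 4.73 to 5.02 in chow KO and 5.10 to 5.23 in chow WT. The summed level of the 15 markers was 3033 to 10078 FPKM in HFD KO, 2148 to 8512 FPKM in HFD WT, 1075 to 1334 FPKM in chow KO and 1418 to 1529 FPKM in chow WT, with no marker at 0. Of the 15 markers, 14 rose with HFD in KO-labelled mice and 13 in WT-labelled mice, so macrophage RNA moved with the diet beside every rise given above, and its part in them was not tested.

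As a description over 16 libraries that share these differences in macrophage RNA, Pearson's r between a gene and the mean of the 15 markers was computed after subtracting group means. It was 0.956 for Csf1r, 0.898 for Spi1, 0.897 for Csf2rb, 0.857 for Csf2rb2 and 0.852 for Csf1. It was lower for Csf2ra (0.735), Maf (0.730) and Flt3 (0.555), and 0.00761 for Zeb2. The marker mean spread only from 4.73 to 5.02 in chow KO and from 5.10 to 5.23 in chow WT, so these r rest mostly on the HFD libraries. Within groups, then, Csf1 followed the macrophage markers across libraries although its diet difference did not pass the test with all 16 libraries. The r of Zeb2 pools HFD groups that went opposite ways. In HFD WT libraries Zeb2 stood at 148, 124, 114 and 131 FPKM at marker means of 5.80, 7.20, 7.57 and 6.80. In HFD KO libraries it stood at 127, 113, 139 and 101.1 FPKM at marker means of 7.74, 6.72, 7.46 and 6.16.

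**Figure D3:**
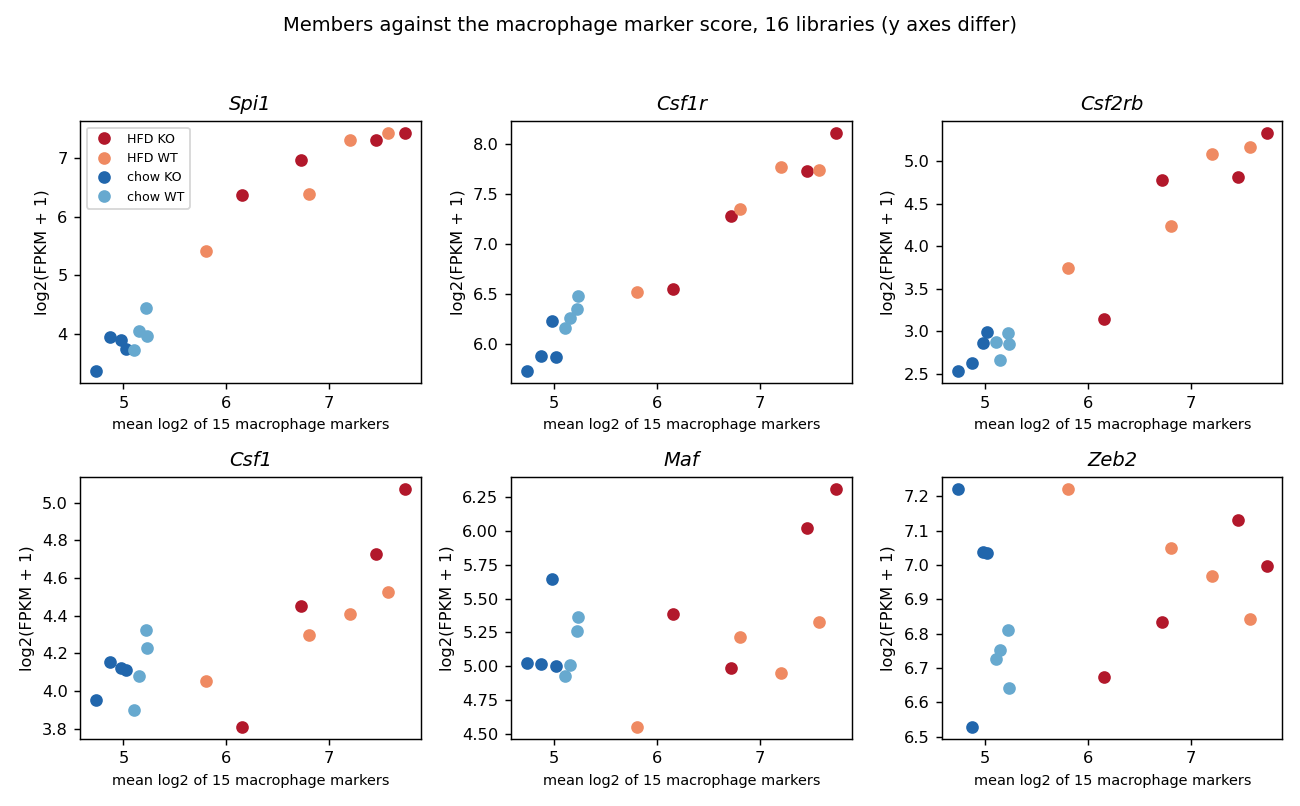
log2(FPKM + 1) of 6 of the genes against the mean log2(FPKM + 1) of 15 macrophage markers in the 16 libraries, coloured by group, with a separate y axis for each panel. Spi1, Csf1r and Csf2rb climb with the marker mean, which is 5.80 to 7.74 in HFD libraries against 4.73 to 5.23 in chow libraries. Zeb2 shows no such trend over the 16 libraries together.

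To set each gene against the macrophage markers, the mean log2 level of the 15 markers was subtracted in every library and the limma fit repeated. The markers did not move as 1: their diet differences ran from 0.54 to 3.72 in KO-labelled mice and from -0.49 to 3.15 in WT-labelled mice. Their mean is therefore not a measure of macrophage number, and a relative difference is not one per macrophage. Relative to the markers, 6 of the 9 genes passed in KO-labelled mice (1 higher, 5 lower), where 92.8% of tested genes passed in either direction, and 7 of 9 in WT-labelled mice (2 higher, 5 lower), where 87.3% did. Spi1 was higher on HFD by 1.16 in KO-labelled mice (SE 0.26, limma adjusted p = 0.000471) and by 0.92 in WT-labelled mice (SE 0.26, limma adjusted p = 0.00398). Csf2rb2 was higher by 0.92 in WT-labelled mice (SE 0.28, limma adjusted p = 0.00552), and its difference in KO-labelled mice was 0.57 (SE 0.28, limma adjusted p = 0.0602), or 0.35 without the 3 libraries with epididymal genes (limma adjusted p = 0.240). Of tested genes, 0.703% were higher relative to the markers in KO-labelled mice and 1.56% in WT-labelled mice. Lower were 92.1% in KO-labelled and 85.8% in WT-labelled mice. Because the markers themselves rose with HFD, subtracting them lowers most genes, so these shares do not set Spi1 or Csf2rb2 apart. Before subtraction, 1 of the 15 markers rose more than Spi1 in KO-labelled mice and 2 in WT-labelled mice. For Csf2rb2 these numbers were 4 in KO-labelled and 2 in WT-labelled mice. The calls of Spi1 and Csf2rb2 rest on the set of markers. With Ptprc alone in place of the 15 they were kept, and Csf2rb2 also passed in KO-labelled mice (0.96, limma adjusted p = 0.00298). With Adgre1 alone in place of the 15, the difference of Spi1 was 0.34 in KO-labelled mice (adjusted p = 0.271) and -0.14 in WT-labelled mice (adjusted p = 0.641), and that of Csf2rb2 was -0.26 in KO-labelled (adjusted p = 0.395) and -0.14 in WT-labelled mice (adjusted p = 0.639).

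Csf2ra and Csf2rb did not pass this test in either genotype. The relative difference of Csf2ra was 0.20 in KO-labelled mice (limma adjusted p = 0.524) and 0.50 in WT-labelled mice (limma adjusted p = 0.129), and that of Csf2rb was -0.36 in KO-labelled (limma adjusted p = 0.206) and 0.045 in WT-labelled mice (limma adjusted p = 0.875). Csf1r was lower relative to the markers, with differences of -0.62 in KO-labelled mice (limma adjusted p = 0.0222) and -0.63 in WT-labelled mice (limma adjusted p = 0.0225). The call for Csf1r was lost in KO-labelled mice without HFD KO replicate 3 (adjusted p = 0.0543) or chow KO replicate 1 (adjusted p = 0.0678). In WT-labelled mice it was lost without HFD WT replicate 3 (adjusted p = 0.0573) or chow WT replicate 3 (adjusted p = 0.0587). With Ptprc alone as the reference it was lost in KO-labelled mice (-0.23, adjusted p = 0.373). Csf1, Flt3, Maf and Zeb2 were lower relative to the markers in both genotypes, with differences of -2.17 (Zeb2) to -1.42 (Flt3) in KO-labelled mice and -1.80 (Maf) to -1.38 (Zeb2) in WT-labelled mice. Csf2rb2 in KO-labelled mice came to pass this test without HFD KO replicate 1 (0.66, adjusted p = 0.0460) or without HFD KO replicate 4 (0.64, adjusted p = 0.0408). It also did so without HFD WT replicate 1 (0.57, adjusted p = 0.0469). Pseudocounts of 0.1 (0.95, adjusted p = 0.00511) and 0.5 (0.76, adjusted p = 0.0175) in place of 1 let it pass as well.

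Ratios of FPKM between genes were taken within each library. The ratio of Csf1r to Csf1 was 8.43, 7.41, 8.33 and 7.13 in HFD KO libraries against 4.51, 3.45, 3.60 and 3.54 in chow KO libraries, and 5.83, 10.7, 9.64 and 8.72 in HFD WT libraries against 4.23, 4.74, 4.98 and 5.07 in chow WT libraries. Receptor thus exceeded ligand in all libraries, and the diets did not overlap. On the log2 scale with a pseudocount of 1, the ratio was higher on HFD by 1.06 in KO-labelled and 0.85 in WT-labelled mice. The exact two-sided permutation p was 0.0286 each, the smallest that 4 against 4 allows. Benjamini-Hochberg adjusted over 12 tests, this permutation p was 0.0686, which does not pass. None of the 12 tests can pass the correction unless most of them reach that smallest p. Not passing therefore does not show that a ratio was unchanged, here or for the ratios below.

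For the beta chains, which may hold each other's reads, the ratio of Csf2rb to Csf2rb2 was 1.57, 1.07, 1.25 and 0.960 in HFD KO libraries against 3.08, 2.39, 3.04 and 3.03 in chow KO libraries, and 1.39, 1.05, 1.38 and 1.06 in HFD WT libraries against 2.52, 2.64, 2.57 and 3.20 in chow WT libraries. Every HFD library had a lower ratio than every chow library. The difference on the log2 scale was -0.92 in KO-labelled and -0.88 in WT-labelled mice (exact permutation p = 0.0286 each, adjusted p = 0.0686) and likewise does not pass. The ratio of Csf2rb to Csf2ra differed by -0.56 in KO-labelled mice (exact permutation p = 0.171, adjusted p = 0.294), or -0.27 without HFD KO replicate 4 and -0.26 without the 3 libraries with epididymal genes, and -0.45 in WT-labelled mice (exact permutation p = 0.0286, adjusted p = 0.0686). None of the 3 ratios differed past the test between KO-labelled and WT-labelled mice on either diet, where the lowest exact permutation p was 0.0571 (Csf1r over Csf1 on chow, adjusted p = 0.114).

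**Figure D4:**
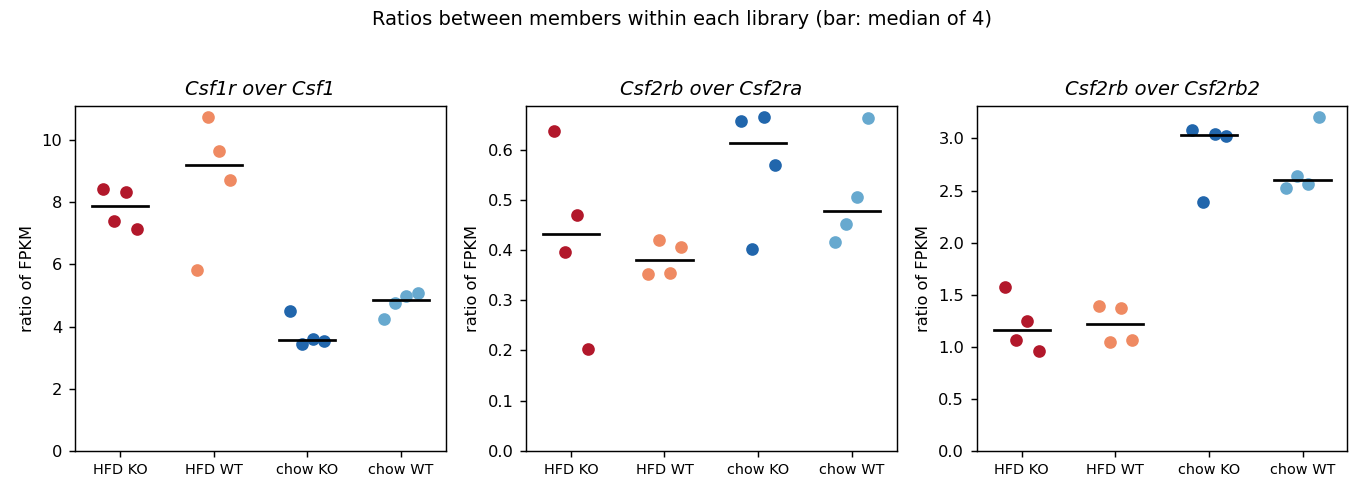
Ratios of FPKM between pairs of the genes within each library (points) and their group median (bar), with groups ordered HFD KO, HFD WT, chow KO and chow WT and axes from 0. The medians of Csf1r over Csf1 are 7.87 in HFD KO and 9.18 in HFD WT against 3.57 in chow KO and 4.86 in chow WT, and those of Csf2rb over Csf2rb2 are 1.16 in HFD KO and 1.22 in HFD WT against 3.03 in chow KO and 2.60 in chow WT.

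Between genotypes, 0 of the 9 genes passed the limma test on HFD, where 0.0316% of tested genes did, and 0 of 9 on chow, where 1.41% did. The groups overlapped for all 9 genes in both comparisons, while 6.83% of tested genes on HFD and 15.2% on chow did not overlap. At an unadjusted p under 0.05 there were 2 of the 9 on HFD and 0 on chow, beside 1500 of all tested genes on HFD and 1861 on chow. The pair on HFD was Maf, 0.66 higher in HFD KO than in HFD WT (SE 0.26, limma adjusted p = 0.365), and Flt3, 0.52 higher (SE 0.23, limma adjusted p = 0.390). Flt3 entered the test through HFD KO, where it is high, so neither its place in this count nor its difference is independent of the filter. Without the libraries with epididymal genes, which leaves 2 HFD KO libraries, these differences were 1.15 for Maf (limma adjusted p = 0.0649) and 0.97 for Flt3 (limma adjusted p = 0.0531), and they were 0.58 for Csf1, 0.58 for Csf1r and 0.73 for Spi1 (limma adjusted p = 0.164 for Csf1, 0.360 for Csf1r and 0.421 for Spi1). With all libraries the genotype difference of Spi1 was 0.38 on HFD (SE 0.36, limma adjusted p = 0.699) and -0.31 on chow (SE 0.36, limma adjusted p = 0.743), and for Csf1r it was 0.074 on HFD (SE 0.30, limma adjusted p = 0.946) and -0.38 on chow (SE 0.30, limma adjusted p = 0.598).

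The test of whether the diet difference itself differed between genotypes gave 0 of 9 genes by limma, where 0.292% of tested genes passed, and 0 of 9 at an unadjusted p under 0.05, beside 1284 of all tested genes. The passing of Flt3 in KO-labelled mice alone is thus not shown to be a difference between genotypes. Relative to the macrophage markers, 0 of 9 genes passed between genotypes on HFD, where 0 tested genes did, and 0 of 9 on chow, where 0.0553% did.

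Genes whose pattern was most like each member were ranked by Pearson's r over the 16 libraries after group means were subtracted, a description of libraries that share the spread of macrophage markers. Csf1r was closest to Cd48 (0.981), Nrros (0.974) and Eea1 (0.973), and Spi1 to Efhd2 (0.972), Ubash3b (0.968) and Selplg (0.967). Csf2rb was closest to Itga5 (0.991) and Inf2 (0.967), and Csf2rb2 to Gusb (0.972) and Dennd4b (0.972). The r between Csf2rb and Csf2rb2 was 0.942, the highest among the 36 pairs of the 9 genes. Csf1 was closest to Loxl3 (0.961), Slc7a7 (0.960) and Cd93 (0.940), and Csf2ra to Mov10 (0.920), Aplp1 (0.918) and Cyba (0.908). Maf was closest to Slc9a9 (0.921), Clec4a1 (0.915) and Tlr7 (0.901), Flt3 to Tsn (0.909), Nrcam (0.907) and Tut7 (0.869), and genes close to Zeb2 were Styx (0.905) and Rexo2 (0.886). Maf and Flt3 had an r of 0.797 with each other, and HFD KO replicates 1 and 3 were the high libraries of both.

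Of 7 other myeloid growth factor genes with an entry, 3 were tested and 0 of them rose. Il34, the other ligand of Csf1r, averaged 4.14 ± 1.22 FPKM in HFD KO against 14.4 ± 8.06 FPKM in chow KO, and 4.72 ± 0.34 FPKM in HFD WT against 10.1 ± 0.83 FPKM in chow WT (SD, n = 4 each). It fell by 1.49 on the log2 scale in KO-labelled mice (limma adjusted p = 0.000538) and by 0.96 in WT-labelled mice (limma adjusted p = 0.00612). Flt3l, the ligand of Flt3, fell by 0.58 in WT-labelled mice (limma adjusted p = 0.0335), and its difference in KO-labelled mice was -0.13. Csf2, which encodes GM-CSF, was at most 0.29 FPKM in any library and listed at 0 in all 4 HFD WT libraries, and Csf3, the granulocyte factor, was at most 0.16 FPKM and listed at 0 in all 4 chow WT libraries, so neither was tested. Kitl, the ligand of the receptor Kit, did not pass the test in either genotype with all libraries, and in KO-labelled mice it passed without the 3 libraries with epididymal genes (0.64, limma adjusted p = 0.0256).

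Of the other receptors, Il3ra, the alpha chain for interleukin 3, averaged 18.7 ± 5.39 FPKM in HFD KO against 5.91 ± 0.67 FPKM in chow KO, and 20.8 ± 6.44 FPKM in HFD WT against 8.01 ± 1.16 FPKM in chow WT (SD, n = 4 each). It rose by 1.47 in KO-labelled mice (limma adjusted p = 0.000273) and by 1.23 in WT-labelled mice (limma adjusted p = 0.000603). Csf3r, the receptor of the granulocyte factor, spread widely, from 3.03 to 23.7 FPKM in HFD KO against 1.29 to 1.59 FPKM in chow KO. It rose by 1.82 in KO-labelled mice (limma adjusted p = 0.00922) and differed by 0.70 in WT-labelled mice (limma adjusted p = 0.265). Without the 3 libraries with epididymal genes, which leaves 2 HFD KO libraries, its rise in KO-labelled mice was 2.82. Kit did not pass the test in either genotype with all libraries, and in KO-labelled mice it passed without those 3 (1.13, limma adjusted p = 0.00169). With all libraries, 2 of 3 tested receptors rose in KO-labelled mice (23.5% of all tested genes) and 1 of 3 in WT-labelled mice (24.6%).

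Downstream of the receptors, 17 of 28 signalling genes rose with HFD and 0 fell in KO-labelled mice (median difference 1.06), and 15 rose and 1 fell in WT-labelled mice (median 0.82). The share of all tested genes that rose was 23.5% in KO-labelled and 24.6% in WT-labelled mice. Pik3r5, a regulatory subunit of a phosphoinositide kinase of leukocytes, rose by 2.95 in KO-labelled and 2.50 in WT-labelled mice. Tyrobp, an adaptor of myeloid receptors, rose by 2.45 in KO-labelled and 2.53 in WT-labelled mice. Syk, a kinase that such adaptors recruit, rose by 2.54 in KO-labelled mice. Ptpn6, a phosphatase that restrains these receptors, rose by 2.12 in WT-labelled mice. The limma adjusted p-values of these rises were between 0.000243 and 0.000693. In the other genotype both were also higher on HFD. Syk averaged 65.4 FPKM in HFD WT against 15.8 FPKM in chow WT, and Ptpn6 45.7 FPKM in HFD KO against 7.9 FPKM in chow KO.

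Other lineage factors were mixed. Of 39 tested, 15 rose and 5 fell with HFD in KO-labelled mice, and 13 rose and 5 fell in WT-labelled mice (median 0.50 in KO-labelled and 0.46 in WT-labelled mice). Among all tested genes, 23.5% rose in KO-labelled and 24.6% in WT-labelled mice. Irf8 and Irf5, interferon regulatory factors of myeloid cells, also rose in both genotypes, Irf8 by 1.84 in KO-labelled and 1.53 in WT-labelled mice and Irf5 by 2.32 in KO-labelled and 1.78 in WT-labelled mice. Ikzf1, a factor of blood lineages, rose by 1.29 in KO-labelled and 1.02 in WT-labelled mice. Gata6, a factor of peritoneal macrophages and mesothelium, fell by 0.76 in KO-labelled mice (limma adjusted p = 0.00763) and by 1.32 in WT-labelled mice (limma adjusted p = 0.000180).

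Irf4, a partner of Spi1 that is also made by adipocytes, and Cebpd, a factor of adipocyte and myeloid differentiation, stood apart. Irf4 averaged 2.69 ± 0.11 FPKM in HFD KO, 3.08 ± 0.84 FPKM in HFD WT, 4.49 ± 1.12 FPKM in chow KO and 18.1 ± 5.48 FPKM in chow WT (SD, n = 4 each). Cebpd averaged 13.5 ± 3.97 FPKM in HFD KO, 9.60 ± 1.62 FPKM in HFD WT, 13.1 ± 5.75 FPKM in chow KO and 44.5 ± 8.83 FPKM in chow WT. The chow WT group was the high one for both genes. The difference of chow KO minus chow WT was -1.78 for Irf4 (limma adjusted p = 0.000441) and -1.74 for Cebpd (limma adjusted p = 0.00230), and the diet difference itself differed between genotypes for Cebpd (2.16, limma adjusted p = 0.0192) and Irf4 (1.65, limma adjusted p = 0.0248). Without the 3 libraries with epididymal genes this last test was not passed (1.78 for Cebpd and 1.54 for Irf4, limma adjusted p = 0.0666 each).

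The cell type lists put these values in context. In KO-labelled mice 23.5% of all tested genes rose and 38.9% passed in either direction. In WT-labelled mice 24.6% rose and 41.9% passed in either direction. Lipid-associated macrophage genes rose in 9 of 10 cases in each genotype, with medians of 4.66 in KO-labelled and 4.29 in WT-labelled mice, and Trem2, a lipid-sensing receptor, rose by 4.76 in KO-labelled and 4.61 in WT-labelled mice. Of 10 genes of resident macrophages, 2 rose and 4 fell in KO-labelled mice, and 3 rose and 4 fell in WT-labelled mice. Timd4, a phosphatidylserine receptor of long-lived macrophages, fell by 1.82 in KO-labelled and 1.40 in WT-labelled mice, and Lyve1 by 1.16 in both. Of those that rose, Stab1, a scavenger receptor, did so by 2.45 in KO-labelled and 1.50 in WT-labelled mice, Mrc1, a mannose receptor, by 1.42 in KO-labelled and 1.14 in WT-labelled mice, and Folr2, a folate receptor, by 1.04 in WT-labelled mice. The KO-labelled differences without the 3 libraries with epididymal genes were -1.77 for Lyve1, 2.25 for Mrc1 and 3.58 for Stab1. Monocyte genes rose in 2 of 8 cases in each genotype, which is near the share of all tested genes. Without the 3 libraries with epididymal genes they rose in 5 of 8 cases in KO-labelled mice, where 30% of tested genes did. Of 10 dendritic genes, 4 rose and 1 fell in KO-labelled mice, and 4 rose and 3 fell in WT-labelled mice, with Itgax, also made by lipid-laden macrophages, up by 3.84 in KO-labelled and 4.33 in WT-labelled mice.

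**Figure D5:**
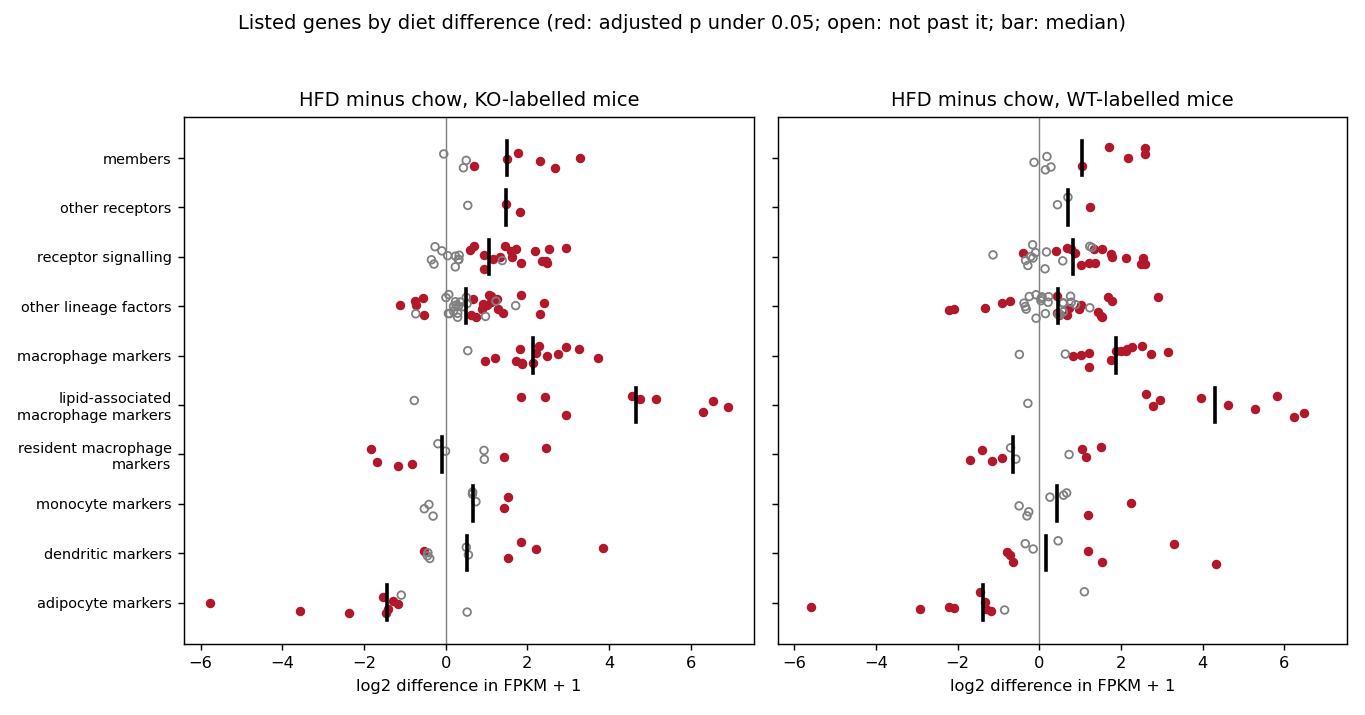
Differences of HFD minus chow in log2(FPKM + 1) for each tested gene of 10 lists, with KO-labelled mice on the left and WT-labelled mice on the right; red points passed an adjusted p of 0.05 and the bar is the list's median. The 9 genes (medians 1.50 in KO-labelled and 1.04 in WT-labelled mice) sit near the signalling genes and below the macrophage markers (2.14 and 1.88), and adipocyte markers lie to the left (-1.44 and -1.39).

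Markers of other cell types in the pad were counted in the same way. Beside them, 23.5% of all tested genes rose in KO-labelled mice (30% without the 3 libraries with epididymal genes) and 24.6% in WT-labelled mice. Adipocyte markers fell in 8 of 10 cases in each genotype, and Cfd, an adipocyte-secreted protease, fell by 5.77 in KO-labelled and 5.60 in WT-labelled mice. Of 7 granulocyte and mast cell markers, 2 rose and 1 fell in each genotype, so the rises are near the share of all tested genes. Lymphocyte markers rose in 0 of 7, with 0 lower in KO-labelled and 2 lower in WT-labelled mice. Mesothelial markers fell in 3 of 6 cases in KO-labelled and 4 of 6 in WT-labelled mice. Fibroblast and progenitor markers rose in 4 of 10 cases in each genotype, with 0 lower in KO-labelled and 2 lower in WT-labelled mice. Endothelial markers rose in 1 of 8 in KO-labelled and 0 of 8 in WT-labelled mice, and smooth muscle markers in 3 of 6 in KO-labelled and 1 of 6 in WT-labelled mice, with 0 lower in either list. The counts in KO-labelled mice without the 3 libraries with epididymal genes were 5 of 7 higher for granulocytes and mast cells, 1 of 6 lower for mesothelium and 2 of 6 higher for smooth muscle, whose summed level was 1377 FPKM in HFD KO replicate 2 and 149 to 220 FPKM in the other HFD KO libraries.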

How the data were processed

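RNA-seq of epididymal fat was measured in 16 libraries, 4 per group, grouped by the sample titles. The deposited values are FPKM per gene, computed by the authors. The submitters' processing notes name STAR 2.7 and the builds GRCm38.p6 and mm10. The FPKM tool, its annotation, the library strand and the depth are not given in the sources used. Of 20101 gene entries, 19945 matched the reference by Entrez number, 1 entry without a name was dropped, 26 symbols turned into dates were restored, and 14408 circular RNA entries were not used here.

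Genes with at least 1 FPKM in at least 4 libraries were tested, 12667 in all. log2(FPKM + 1) was fitted with limma 3.58.1 (R 4.3.3) on 4 group means with all 16 libraries, empirical Bayes and a variance trend, and p-values were Benjamini-Hochberg adjusted over all tested genes with a threshold of 0.05. Fold changes on this scale understate those of low genes. The fit was tested on simulated data. Ratios were tested with exact permutation in scipy 1.17.1. The members and lists were chosen with earlier results of these data known. Genes named besides the members are the growth factors and receptors of the family, up to 4 genes with the smallest p per list and comparison among those past the threshold, and the 3 most like each member. A few genes that this rule names are not reported here. Gene positions are from the RefSeq table for GRCm38.p6, and strands, exons and transcripts are from GENCODE vM21. Alternatives were other scalings, pseudocounts, filters, thresholds and marker references, array weights, a replicate block, a fit without variance trend, the 2 groups alone, and leaving out libraries. The counts of list genes without the 3 libraries with epididymal genes were added after seeing the data.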

Additional observations from a re-analysis of the deposited data

Results flagged for a closer look

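Each gene was checked in each group for a library whose gap to the nearest other library was large against the group's range, by Dixon's criterion for 4 values on the log2 scale. Of 36 such groups, 2 held one, and chance alone gives about 1 in 20. Csf2rb2 in HFD KO replicate 4 stood at 8.14 FPKM, far below the other 3 HFD KO libraries. Epididymal genes took 1.38% of all FPKM in that library and its macrophage marker mean was the lowest of its group. Maf in chow KO replicate 1 stood at 49.07 FPKM, far above the other 3 chow KO libraries.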

How the results depend on the processing

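The number of the 9 genes that passed with HFD was 5 to 7 in KO-labelled mice and 5 in WT-labelled mice with 1 library left out. Between genotypes and for the interaction it was 0 in all alternatives run, except that array weights gave 1 gene on chow, Zeb2 (0.35, adjusted p = 0.0308). Relative to the markers, higher and lower calls together, it was 5 to 7 in KO-labelled and 6 to 7 in WT-labelled mice with 1 library left out, where most tested genes passed. Same-numbered libraries did not deviate together (8 of 24 pairs correlated above 0.1, range -0.63 to 0.37). With the replicate block 6 genes passed with HFD in KO-labelled mice, 5 in WT-labelled mice and 0 between genotypes. Of 1472 values of single genes, 1400 kept direction and call, 16 came to pass, 12 no longer passed and 44 turned their sign. Except for Spi1 and Csf2rb2 set against Adgre1, the differences that turned had not passed as reported. The cause was not tested.

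With median-of-ratios scaling, KO minus WT was -0.076 for Csf1r on HFD and -0.067 for Maf on chow, and this scaling moved the median of all genes on HFD by -0.13. Quantile normalization moved the median of all genes by -0.10 to -0.15 in the 4 comparisons of groups. With array weights KO minus WT was 0.026 for Csf2rb and 0.094 for Zeb2 on HFD and -0.00854 for Maf on chow. Without the 3 libraries with epididymal genes it was 0.022 for Csf2ra, 0.52 for Csf2rb, 0.30 for Csf2rb2 and 0.043 for Zeb2 on HFD, and the relative diet difference of Csf2ra in KO-labelled mice was -0.15. With Adgre1 as the only marker, the relative diet difference in KO-labelled mice was -0.62 for Csf2ra and -0.26 for Csf2rb2, and in WT-labelled mice -0.57 for Csf2ra, -1.02 for Csf2rb (adjusted p = 0.00317), -0.14 for Csf2rb2 and -0.14 for Spi1. With Ptprc alone it was 0.033 in KO-labelled and -0.049 in WT-labelled mice for Csf2rb.

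With 1 library left out, KO minus WT on HFD ranged from -0.20 to 0.36 for Csf1r, -0.33 to 0.15 for Csf2ra, -0.31 to 0.42 for Csf2rb, -0.36 to 0.33 for Csf2rb2 and -0.025 to 0.65 for Spi1. On chow it ranged from -0.13 to 0.014 for Csf1, -0.10 to 0.085 for Flt3 and -0.12 to 0.11 for Maf. HFD minus chow ranged from -0.19 to 0.040 for Zeb2 in KO-labelled mice and from -0.23 to 0.027 for Maf in WT-labelled mice, and relative to the markers from -0.030 to 0.14 for Csf2rb in WT-labelled mice. Depth is unknown, so no counting error is given, and Flt3 lies near the filter.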
